A study of Drosophila melanogaster with 15 samples.

Results

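The mitochondrial ribosome translates the few messages that the mitochondrial genome keeps, which encode membrane subunits of the respiratory chain and of ATP synthase. Its ribosomal RNAs are made inside the organelle, whereas its proteins are encoded in the nucleus, translated in the cytosol, imported and assembled into a large and a small subunit. Part of these proteins descend from the bacterial ancestor and keep bacterial numbers, and the others were added in mitochondria. In flies the nuclear genes carry the symbols *mRpL* (large subunit) and *mRpS* (small subunit), followed by a number. The transcripts of these genes were followed here in astrocytes of the adult fly brain before and after traumatic brain injury (TBI). Members were all genes of the expression table whose symbol is *mRpL* or *mRpS* plus a number, and 72 of the 17509 rows met this rule, 47 *mRpL* and 25 *mRpS* genes. The symbol *mRpS5* also fits the rule and was not analysed here.

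Astrocytes were labeled by *R86E01-Gal4*, an enhancer line for astrocytes, driving the nuclear red fluorescent protein Redstinger (*R86E01-Gal4/UAS-Redstinger*). All 3 groups carried both transgenes in flies listed as WT, so the cells studied are those in which this driver is active. Flies were 3 days past eclosion when the HIT device, a spring that slams a vial of flies against a pad, was released from 90° to cause TBI. Brains were taken from uninjured flies, at 4 hr and at 24 hr after TBI, pooled at about 50 per group, dissociated, and sorted by red fluorescence, with 1600 cells per sample and 5 replicates per group. They are named biological replicates, and whether each came from its own dissection is not stated, so a p-value measures the spread between these samples, which may be partly technical. Poly(A) RNA was amplified by Smart-seq2. The unit is TPM, the share of a gene among all transcripts after correction for gene length. The number of reads in each single sample is not given in the sources used here, so the precision of a TPM value can be seen only from the replicates. In sorted bulk samples fewer cells of a type cannot be told apart from less RNA per cell.

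Samples differed in composition, and this bears on every share. Transcripts of the mitochondrial genome took 32.7% to 51.8% of TPM in uninjured samples. They took 11.5% to 26.9% in replicates 1 to 3 at 4 hr and 15.2% to 19.6% in replicates 1 to 3 at 24 hr, whereas injured replicates 4 and 5 stood at 33.4% to 43.2%, within the uninjured range. All 8 astrocyte markers passed the filter, with a summed level of 50859 to 84423 TPM in the 15 samples. The 13 neuronal markers, of which 12 passed the filter, summed to 73.1 to 98.0 TPM in uninjured samples, 152 to 210.5 TPM at 4 hr and 83.1 to 253 TPM at 24 hr, and the part of neuronal RNA in the values below was not tested. Summed cortex glia markers (4 of 4 passed the filter) were at 379 to 898 TPM, 434 to 2095 TPM and 837 to 2866 TPM in the same groups. Surface glia markers (2 of 4 passed the filter) summed to means of 17.2, 52.1 and 56.4 TPM in uninjured, 4 hr and 24 hr samples. Hemocyte markers (1 of 6 passed) summed to 98.3, 170 and 144 TPM. The means were 56.5, 67.9 and 74.5 TPM for ensheathing glia, 27.2, 31.1 and 35.8 TPM for fat body, and 2.87, 2.98 and 1.97 TPM for muscle markers. The 5 photoreceptor markers summed to at most 1.99 TPM in any sample.

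Genes of the mitochondrial ribosome were expressed over a wide range in uninjured astrocytes. Over the 72 members the median of the mean uninjured TPM was 15.6. Only 8 members were at 50 TPM or more, 38 lay between 10 and 50, 17 between 1 and 10, and 9 below 1. The 10 highest members held 46.2% of the summed TPM of all 72. Transcripts of proteins that work in a fixed ratio in the ribosome were thus far from equal in TPM, with a 194-fold span between the highest and the lowest mean among the 65 members that passed the filter (5 or more samples with a TPM of 1 or more).

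The highest mean belonged to *mRpS35*, a small subunit protein with a mitochondrion-specific number. In uninjured replicates 1 to 5 it measured 127, 100.1, 103, 113 and 105 TPM (109 ± 10.7, SD, n = 5). Second was *mRpS11*, whose bacterial counterpart lies in the platform of the small subunit, with 111, 49.9, 115, 124 and 139 TPM (108 ± 34.2). Uninjured replicate 2 was the low sample for *mRpS11*, and the other 4 were close together. *mRpL30* followed with 97.6 ± 17.4 TPM and *mRpS7*, whose bacterial counterpart starts the assembly of the small subunit head, with 91.8 ± 24.2 TPM. The SDs of neighbours in this order overlapped, so the order of these 4 genes is not resolved.

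At the other end, 7 members did not pass the filter, and all 7 were large subunit genes, namely *mRpL11*, *mRpL18*, *mRpL22*, *mRpL33*, *mRpL34*, *mRpL48* and *mRpL50*. *mRpL33* was listed at 0 in all 15 samples. *mRpL34* was listed at 0 in 14 samples and at 3.67 TPM in uninjured replicate 3. These genes have the fewest exonic bases of all members, 349 for *mRpL33* and 327 for *mRpL34*, whereas the other 5 have between 734 and 973. *mRpL11*, whose bacterial counterpart sits at the base of the stalk where translation factors dock, was at 0 to 0.76 TPM, and *mRpL22* was at 0 to 0.99 TPM. Values this low cannot show a difference between groups, and a 0 here does not show that the gene is silent.

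Members with known places in the ribosome did not share a level. In the stalk, *mRpL10* averaged 79.5 ± 24.3 TPM in uninjured astrocytes, whereas *mRpL12*, which *mRpL10* anchors in bacteria in several copies, averaged 1.37 ± 0.629 TPM. Near the peptidyl transferase center, *mRpL2* was at 23.5 ± 7.40 TPM and *mRpL3* at 8.92 ± 6.87 TPM. *mRpL45*, whose human counterpart holds the ribosome at the inner membrane, was at 68.8 ± 12.6 TPM. *mRpL44*, with the fold of an RNase III enzyme in its human counterpart, was at 14.3 ± 5.61 TPM. *mRpS29*, the counterpart of the human GTP-binding protein DAP3, was at 16.5 ± 2.39 TPM, and *mRpS30*, a large subunit protein in human ribosomes in spite of its symbol, was at 8.96 ± 3.25 TPM.

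By subunit and by origin the levels were close to one another. Large subunit members had a median uninjured mean of 15.1 TPM and small subunit members 16.5 TPM. The 41 members with bacterial numbers (up to 36 for *mRpL* and up to 21 for *mRpS*) had a median of 14.3 TPM and the 31 with higher numbers 17.1 TPM. The number alone decided this grouping, and *mRpS24*, for one, counts as mitochondrion-specific although its human counterpart corresponds to a bacterial protein.

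**Figure D1:**
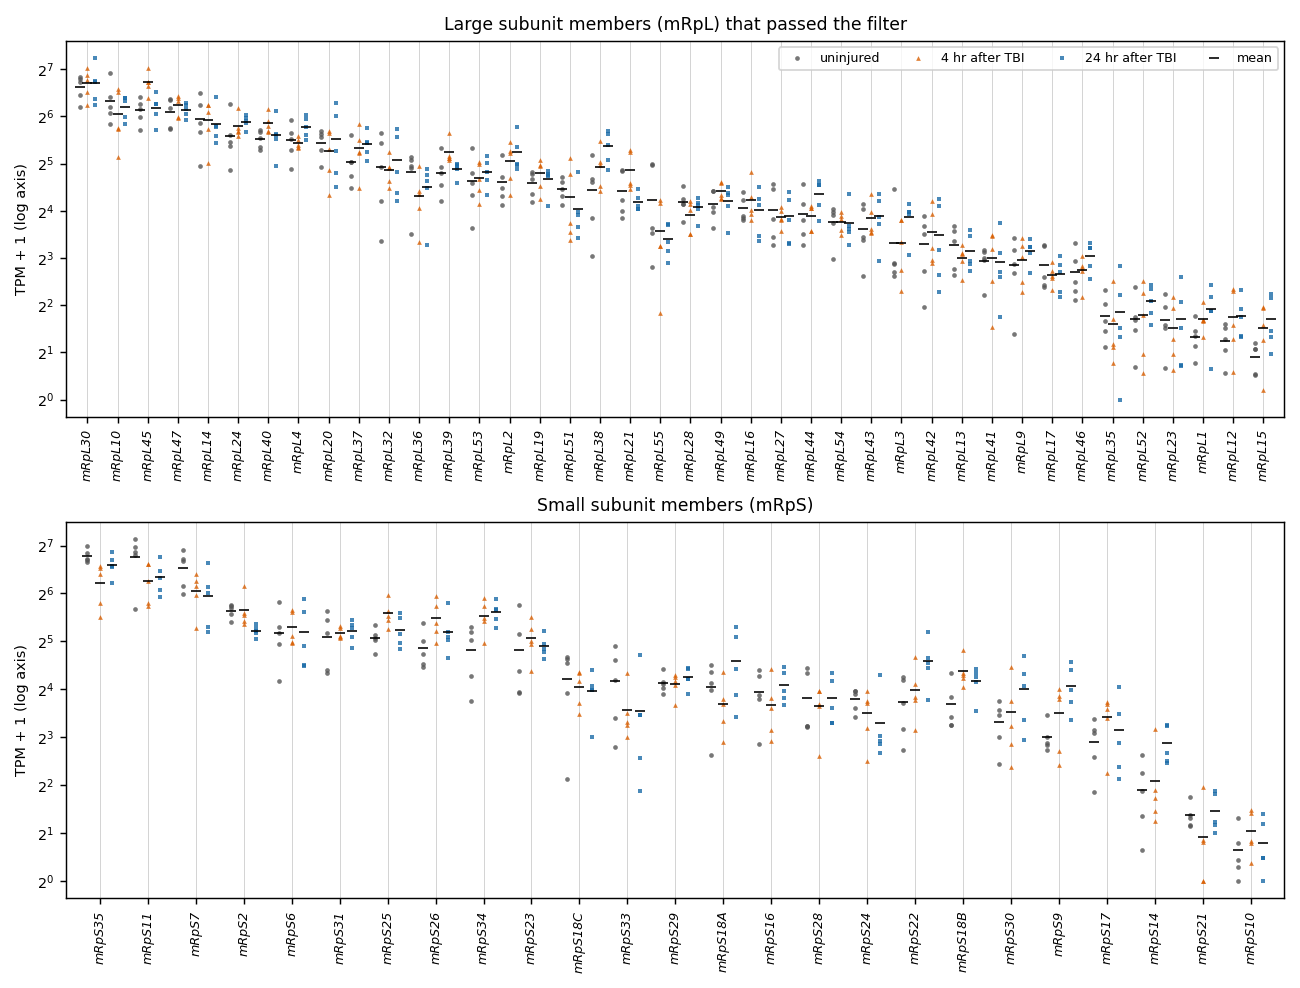
TPM + 1 on a log axis for the 65 members that passed the filter, ordered within each subunit by the uninjured mean, with 1 point per sample (gray circles uninjured, orange triangles 4 hr, blue squares 24 hr) and a black bar at each group mean. For most members the 3 groups cover the same range, and *mRpS35* at 4 hr and *mRpS2* at 24 hr are the only members whose 5 injured samples all lie below the 5 uninjured ones.

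In the dm6 genome the members are compact genes spread over the large chromosome arms, with 11 on X, 12 on 2L, 12 on 2R, 16 on 3L, 21 on 3R and 0 on chromosome 4. Their median exonic length was 783 bases (327 to 2078), against 1734 bases for the 13861 protein-coding genes of the table. A neighbor transcribed in the opposite direction from a start within 500 bases was found for 51 members, or 70.8%, compared with 25.0% of the protein-coding genes of the table and 36.7% of the 7606 protein-coding genes that passed the filter. Such a pair shares the sequence between the starts. *mRpS11* starts 57 bases from *Ns1*, *mRpL2* 64 bases from *FoxK*, and *mRpL55* 95 bases from *ATPsynD*, a subunit gene of ATP synthase. Exons of 10 members overlapped those of another gene by more than 10% of their length. Only for *mRpL53*, which lies wholly within exons of *CG33155*, and *mRpL13*, with 35.2% in *CG10602*, was the overlap on the same strand above that limit, and reads of such a pair cannot be assigned with certainty.

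The first comparison asked whether these transcripts differed 4 hr after TBI. No member passed the test, a limma fit of log2(TPM + 1) over 8101 genes in which a call needed both a fold change of 1 or more in size on the log2 scale and an adjusted p (Benjamini–Hochberg) under 0.01, whereas 5.99% of all tested genes did. An unadjusted p below 0.05 was reached by 5 members in the upward direction (*mRpL45*, *mRpS34*, *mRpS18B*, *mRpS26* and *mRpS25*), against 23% of all tested genes. In the downward direction 1 member reached it (*mRpS35*), against 4.09% of all tested genes. This balance turned under other scalings. After median-of-ratios size factors 0 members reached it upward and 5 downward (14.7% and 11.1% of all tested genes), after quantile normalization 0 and 6 (12.1% and 12.9%), and with the mitochondrial genome removed 0 and 5 (14.7% and 10.8%). No member had all 5 injured samples above all uninjured ones, which 8.68% of all tested genes had. The reverse held for 1 member (*mRpS35*), against 0.839%. In TPM as deposited, the 95% confidence interval of the log2 fold change lay inside ±1 for 38 of the 65 members. The same held for 2731 of the 8101 tested genes. For these 38 members the interval holds no log2 fold change of 1 in either direction, whereas for the other members it does. Intervals under the other scalings were not counted.

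*mRpL45* (FBgn0263863, chr3R:22618492-22619826, plus strand) had the smallest adjusted p at 4 hr. In uninjured replicates 1 to 5 it measured 75.9, 70.1, 62.2, 84.3 and 51.6 TPM. At 4 hr it measured 82.5, 105, 105, 129.7 and 99.3 TPM, so that 4 of the 5 samples lay above every uninjured sample. At 24 hr it was back at 51.6, 65.3, 75.5, 75.3 and 89.9 TPM. The log2 fold change at 4 hr was 0.60 (SE 0.19, adjusted p = 0.046), below the fold required, and that of 24 hr against 4 hr was -0.54 (SE 0.19, adjusted p = 0.12). After size factors the 4 hr value was 0.26 (adjusted p = 0.55), and with the mitochondrial genome removed 0.25 (adjusted p = 0.58). With the mitochondrial share as a covariate it was 0.81 (adjusted p = 0.014), still below the fold required.

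*mRpS35* (FBgn0035374, chr3L:2780899-2782105, plus strand) had the smallest adjusted p among members that were lower at 4 hr. Its 4 hr samples were at 93.6, 92.0, 84.3, 44.8 and 54.9 TPM, all below the lowest uninjured sample at 100.1 TPM. The log2 fold change was -0.61 (SE 0.21, adjusted p = 0.062). The 2 lowest samples were replicates 4 and 5, those with a mitochondrial genome share at the uninjured level, and without injured replicates 4 and 5 the log2 fold change was -0.28. At 24 hr, *mRpS35* was at 73.1 to 115 TPM (95.4 ± 15.4) and overlapped the uninjured samples.

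*mRpS34* (FBgn0285951, chr3L:16348074-16348782, plus strand), a small subunit protein whose loss in humans causes a respiratory chain disorder, was the member with the largest log2 fold change at 4 hr (0.79, SE 0.28, adjusted p = 0.075). It measured 38.3, 31.9, 35.9, 18.5 and 12.4 TPM in uninjured samples, 52.8, 43.6, 30.0, 41.9 and 58.9 TPM at 4 hr, and 38.1, 43.1, 49.9, 57.9 and 49.7 TPM at 24 hr. Uninjured replicates 4 and 5 were the low samples of their group, and in each injured group 1 sample lay within the uninjured range. Next were *mRpS18B* (0.73, adjusted p = 0.086), *mRpS26* (0.62, adjusted p = 0.12) and *mRpL38* (0.62, adjusted p = 0.26). Besides *mRpS35*, the lowest log2 fold changes were those of the weakly expressed *mRpS21* (-0.62, adjusted p = 0.29), of *mRpL55* (-0.64, adjusted p = 0.41) and of *mRpS33* (-0.50, adjusted p = 0.55).

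At 24 hr after TBI again no member passed the test, compared with 2.32% of all tested genes. With the adjusted p relaxed to 0.05 and the same fold, 2 members passed (*mRpL38* and *mRpS9*), 3.08% of the 65, against 13.5% of all tested genes. An unadjusted p below 0.05 was reached upward by 6 members (*mRpL38*, *mRpS34*, *mRpS9*, *mRpS22*, *mRpS14* and *mRpL2*), against 36.5% of all tested genes, and downward by 2 (*mRpS2* and *mRpS7*), against 2.73%. The balance again turned with the scaling, to 0 upward and 11 downward after size factors (14.6% and 12.3% of all tested genes), 0 and 13 after quantile normalization (12.1% and 13.3%), and 2 and 7 with the mitochondrial genome removed (18.8% and 8.74%). No member had its 24 hr samples wholly above the uninjured ones, compared with 12.5% of all tested genes, and 1 (*mRpS2*) had them wholly below, compared with 0.518%. The 95% interval lay inside ±1 for 38 members at 24 hr as well, and for 2349 of the 8101 tested genes.

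*mRpL38* (FBgn0030552, chrX:14226289-14227949, plus strand), a mitochondrion-specific protein of the central protuberance of the large subunit in mammals, measured 23.3, 13.3, 35.3, 24.3 and 7.28 TPM in uninjured samples. At 24 hr it measured 50.8, 48.2, 32.5, 28.1 and 40.9 TPM (log2 fold change 1.06, SE 0.34, adjusted p = 0.040). After size factors the log2 fold change was 0.58 and with the mitochondrial genome removed 0.68 (adjusted p = 0.23 and 0.16), so the relaxed threshold was not met there. The groups overlapped because uninjured replicate 3 was above 2 of the injured samples. At 4 hr the mean was 29.6 ± 9.32 TPM, between those of the other groups (20.7 ± 10.8 and 40.1 ± 9.77).

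*mRpS9* (FBgn0037529, chr3R:7889277-7902667, minus strand), whose bacterial counterpart reaches the tRNA in the peptidyl site, had 5.61, 7.03, 6.15, 6.32 and 10.1 TPM in uninjured samples. Its 24 hr samples were at 22.6, 20.0, 14.8, 12.3 and 9.20 TPM (log2 fold change 1.02, SE 0.35, adjusted p = 0.049), and a single pair of samples overlapped. The log2 fold change was 0.56 after size factors (adjusted p = 0.24). At 4 hr replicates 1 to 3 were at 13.6, 12.9 and 15.1 TPM, above all uninjured samples, and replicates 4 and 5 at 5.53 and 4.32 TPM, below them. Of its exonic bases, 25.1% overlap *ArgRS-m* on the opposite strand, a gene whose log2 fold change at 24 hr was 0.15. Without injured replicates 4 and 5, an alternative chosen after the data were seen, *mRpS9* was the only member that passed the test at 24 hr (log2 fold change 1.33).

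The 24 hr value of *mRpS34* was 0.88 on the log2 scale (SE 0.28, adjusted p = 0.040), and 0.39 after size factors (adjusted p = 0.41). *mRpS22*, a small subunit protein with a mitochondrion-specific number, averaged 12.2 ± 5.52 TPM in uninjured samples and 23.2 ± 8.19 TPM at 24 hr (log2 fold change 0.92, adjusted p = 0.072). *mRpS14* averaged 2.74 ± 1.80 and 6.31 ± 2.04 TPM (1.07, adjusted p = 0.074), and 35.8% of its exonic bases overlap *Naa15-16*. None of these 3 reached the threshold.

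*mRpS2* (FBgn0031639, chr2L:4849439-4850419, minus strand) is the counterpart of a bacterial protein of the small subunit. It measured 53.4, 46.5, 41.4, 52.7 and 50.6 TPM in uninjured samples and 35.0, 37.7, 40.1, 32.2 and 36.4 TPM at 24 hr, a narrow group that lay wholly below. The log2 fold change was -0.42 (SE 0.18, adjusted p = 0.10). At 4 hr the mean was 49.2 ± 12.2 TPM, with replicate 4 at 70.4 TPM. Larger but less even differences were found for *mRpS33* (-0.76, adjusted p = 0.25), *mRpS7* (-0.64, adjusted p = 0.11), *mRpL55* (-0.62, adjusted p = 0.33) and *mRpS24* (-0.62, adjusted p = 0.19), and 55.3% of the exonic bases of *mRpS24* overlap *TBC1d7*.

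**Figure D2:**
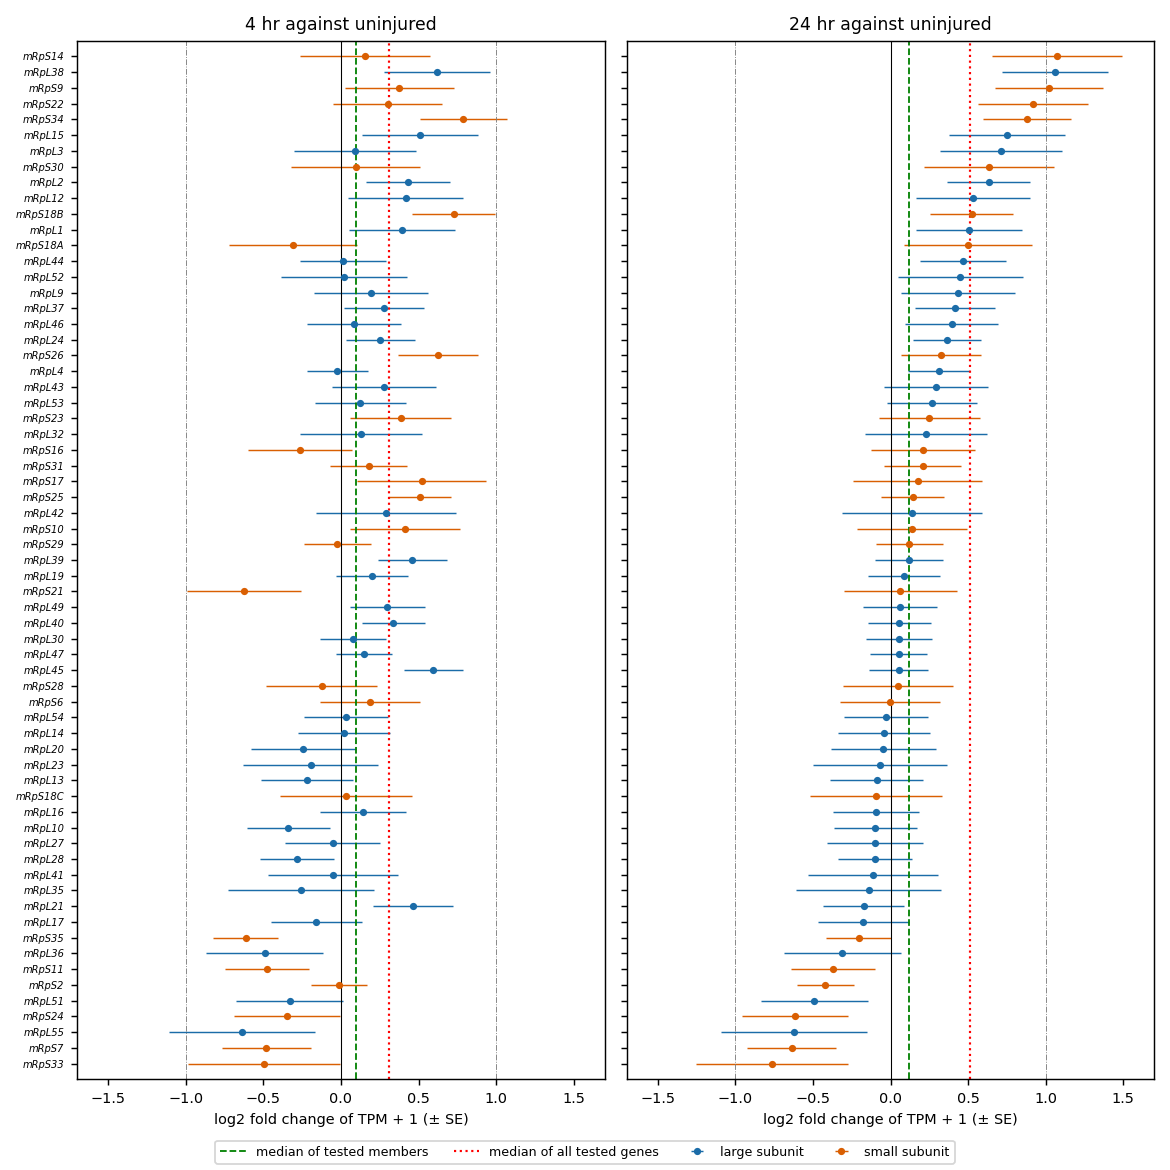
Log2 fold change of TPM + 1 (± SE, limma) at 4 hr (left) and 24 hr (right) against uninjured for each of the 65 tested members, ordered by the value at 24 hr, large subunit in blue and small subunit in orange. The dashed green line is the median of the members (0.09 and 0.12), the dotted red line that of all tested genes (0.31 and 0.51), and most members lie left of the red line.

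Between the injured groups no member passed the test, compared with 2% of all tested genes. An unadjusted p below 0.05 was found for 1 member with a higher 24 hr level (*mRpS14*, log2 fold change 0.92), against 12% of all tested genes, and for 3 with a lower level (*mRpL21* at -0.64, *mRpL45* at -0.54 and *mRpS2* at -0.40), against 7.06%. The smallest adjusted p was 0.12. The 95% interval lay inside ±1 for 43 of the 65 members and for 3138 of the 8101 tested genes. *mRpS18A* (0.81, adjusted p = 0.30) and *mRpS21* (0.69, adjusted p = 0.32) were the next highest after *mRpS14*.

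None of the genes named for their role passed the test, *mRpL45* and *mRpS7* with the values already given included. In the stalk, *mRpL10* had log2 fold changes of -0.34 at 4 hr and -0.10 at 24 hr (adjusted p = 0.45 and 0.81) and *mRpL12* 0.42 and 0.53 (0.50 and 0.29). *mRpL2* and *mRpL3* of the catalytic region had 0.43 and 0.09 at 4 hr (0.32 and 0.91), and 0.63 and 0.71 at 24 hr (0.095 and 0.18). In *mRpL3*, uninjured replicate 1 stood at 21.2 TPM against 5.12 to 6.47 in the other 4, and 24 hr replicate 4 at 7.41 TPM against 14.3 to 16.8 TPM. *mRpL44* had 0.01 and 0.47, *mRpS29* -0.02 and 0.12, and *mRpS30* 0.09 and 0.63, none with an adjusted p below 0.22. *mRpS29* was the steadiest of these genes, and its 95% intervals ran from -0.48 to 0.43 at 4 hr and from -0.33 to 0.57 at 24 hr.

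As a group, the members had a nearly even share of TPM in the 3 groups, whereas the median of all tested genes was above 0. The median log2 fold change of the 65 members was 0.09 at 4 hr and 0.12 at 24 hr, compared with 0.31 and 0.51 over all tested genes, and 48 members at 4 hr and 54 at 24 hr lay below the median of all tested genes. Both comparisons use the same uninjured samples. The members also spread less around their median, with an SD over genes of 0.35 and 0.41 on the log2 scale, against 0.73 and 0.66 over all tested genes. Among replicates, the median coefficient of variation of the members was 37.4%, 30.0% and 29.9% in uninjured, 4 hr and 24 hr samples, and that of all tested genes 40.0%, 39.9% and 35.3%. The median log2 fold change was 0.11 and 0.06 for large subunit members, 0.09 and 0.14 for small subunit members, 0.06 and 0.06 for bacterial numbers and 0.15 and 0.14 for mitochondrion-specific numbers.

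Summed over all 72 members, the level was 1684 ± 214 TPM in uninjured samples (1321 to 1875), 1728 ± 174 TPM at 4 hr (1493 to 1931) and 1743 ± 274 TPM at 24 hr (1456 to 2183), or 0.168%, 0.173% and 0.174% of TPM. The 3 groups overlapped almost fully. Large subunit members summed to 984 ± 114, 1062 ± 124 and 1057 ± 176 TPM and small subunit members to 700.3 ± 104, 666 ± 53.6 and 686 ± 102 TPM. Both sums follow the symbols, so *mRpS30* counts with the small subunit. The ratio of the large to the small sum is not altered by a single factor applied to a whole sample. This ratio was 1.41 ± 0.093 in uninjured samples (lowest 1.298, highest 1.549), 1.59 ± 0.093 at 4 hr (1.44 to 1.67) and 1.54 ± 0.103 at 24 hr (1.43 to 1.68). The ratios were higher on average in injured samples, with overlapping ranges, and were not tested. *mRpS35*, *mRpS11* and *mRpS7*, the most abundant small subunit members, averaged 73.9 ± 22.6, 75.4 ± 21.6 and 65.8 ± 17.6 TPM at 4 hr, each below its uninjured mean. They were picked by their uninjured means, a choice that by itself favors lower values in the other groups.

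**Figure D3:**
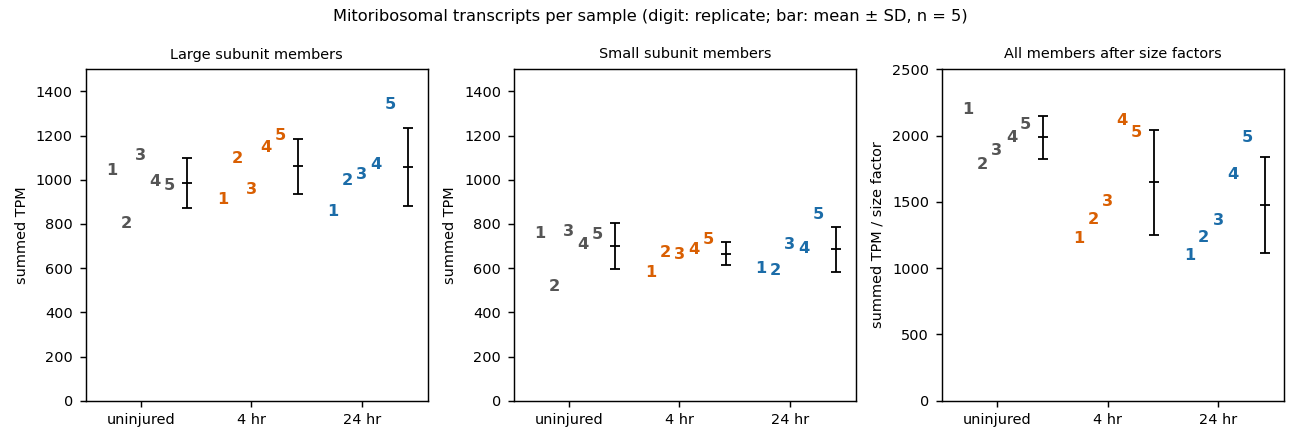
Summed TPM per sample of the large subunit members (left) and the small subunit members (middle), and the sum of all members scaled by size factors of the median-of-ratios kind (right), with digits for replicate numbers and bars for the mean ± SD of 5 samples. The raw sums of the 3 groups overlap, and after size factors replicates 1 to 3 of both injured groups (1099 to 1503) lie below all uninjured samples (1782 to 2199), and of injured replicates 4 and 5 only 24 hr replicate 4 (1709) does.

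Whether the shares point up or down depended on the scaling. After median-of-ratios size factors, which ranged from 0.741 in an uninjured sample to 1.32 in a 24 hr sample, the median log2 fold change of the members was -0.20 at 4 hr and -0.35 at 24 hr, and that of all tested genes 0.02 and 0.10. With the mitochondrial genome removed and TPM rescaled, the medians were -0.21 and -0.27 for the members and 0.02 and 0.19 for all tested genes. Under each of these scalings no member passed the test at either time. Relative to all tested genes the members were lower by 0.22 at 4 hr and by 0.39 at 24 hr in TPM, with the same sign under both scalings. Both scalings apply a single factor to a whole sample, which moves members and other genes almost alike. The shared sign is therefore no check on the gap. The size of this gap depended on the filter. Without the filter the medians at 4 hr and 24 hr were 0.08 and 0.06 for the members and 0.14 and 0.21 for all genes. With mitochondrial share entered as a covariate, the members' medians were 0.11 and 0.23, above the 0.04 and 0.17 of all tested genes, so the sign of the gap between members and other genes was not the same in that fit. For *mRpS35* at 4 hr the log2 fold change was -0.95 after size factors, -0.96 with the mitochondrial genome removed and -0.96 with the share as a covariate (adjusted p = 0.001, 0.0011 and 0.0037), close to the fold that a call needs but not past it. At 24 hr, after size factors, *mRpS2* was at -0.91 (adjusted p = 0.023) and *mRpS7* at -1.13 (adjusted p = 0.043), which meets the relaxed threshold only.

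**Figure D4:**
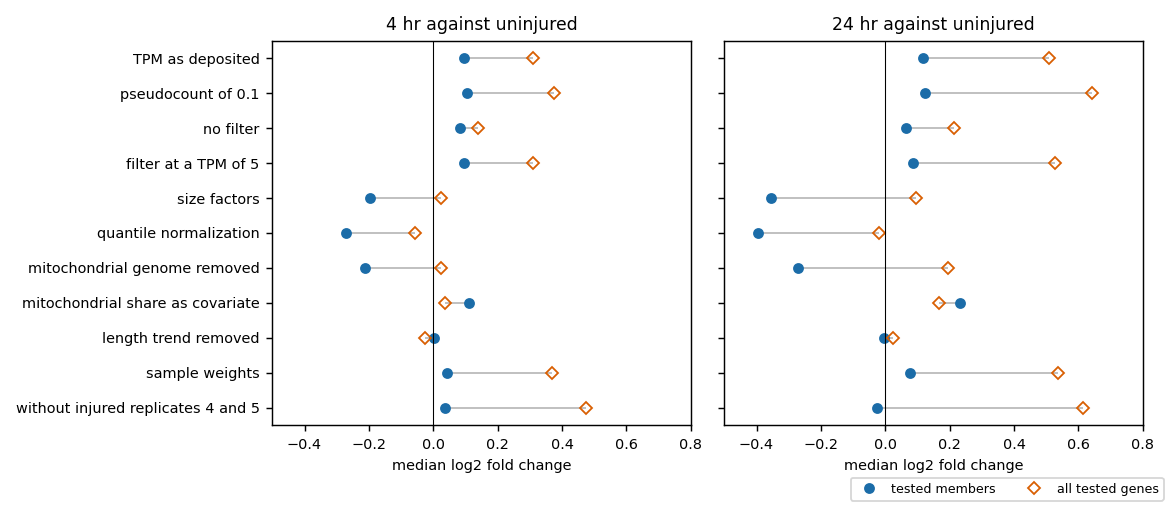
Median log2 fold change at 4 hr (left) and 24 hr (right) against uninjured for the tested members (filled blue circles) and for all tested genes (open orange diamonds) in TPM as deposited and under the alternatives named on the axis. The members lie left of all tested genes in each, except with the mitochondrial share as a covariate (both times) and with the length trend removed (at 4 hr, by 0.03).

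Exonic length moved with these values. Tested members had a median exonic length of 794 bases and all tested genes 2074, and in all tested genes the log2 fold change increased with log2 exonic length (Pearson r across genes 0.149 at 4 hr and 0.267 at 24 hr). Across the 65 members, which share the same 15 libraries, r was 0.39 and 0.40. Among the shortest members, those up to 600 bases, the median was -0.31 at 4 hr and -0.09 at 24 hr (11 members), and between 1000 and 1500 bases it was 0.20 and 0.31 (19 members). All tested genes in the same length ranges had medians of -0.04 and 0.02, and of 0.19 and 0.32. With the trend on length removed from each sample, the medians of the members were 0.00 at both times and those of all tested genes -0.02 and 0.02. This step takes out the level of each sample at every length along with the slope. Medians near 0 follow largely from it and do not show that the members were unchanged. The length ranges were chosen after the data were seen. Which of length, composition and injury set the values cannot be told apart in these groups.

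**Figure D5:**
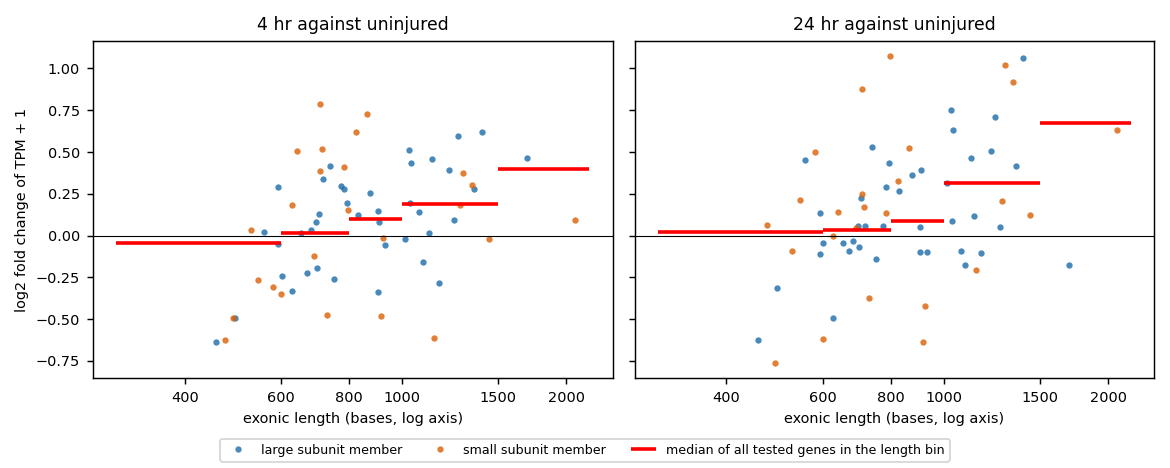
Log2 fold change at 4 hr (left) and 24 hr (right) against exonic length in bases (log axis) for the 65 tested members, large subunit in blue and small subunit in orange, with red lines at the median of all tested genes within 5 length ranges. Most tested members are shorter than 1500 bases, where the red lines lie at or below 0.32, and at 24 hr the line for longer genes lies at 0.67.

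Injured replicates 4 and 5 differed from replicates 1 to 3 in the members too. At 4 hr, 15 of the 65 members were higher in both replicates 4 and 5 than in each of replicates 1 to 3, or 23.1%, compared with 10.2% of all tested genes, and 7 were lower in both, or 10.8%, compared with 35.8%. At 24 hr the counts were 20 (30.8%, compared with 13.1%) and 4 (6.15%, compared with 36.4%). Members on the high side at both times were *mRpL23*, *mRpL32*, *mRpL37*, *mRpL46*, *mRpL49* and *mRpL55*, and members on the low side at both times were *mRpS9* and *mRpS30*. *mRpL10*, for one, measured 34.3, 51.9 and 52.6 TPM in replicates 1 to 3 at 4 hr and 91.0 and 94.8 TPM in replicates 4 and 5. Members on the high side were short, with median exonic lengths of 729 and 701.5 bases at 4 hr and 24 hr, and those on the low side longer, with 1144 and 1285 bases. All tested genes split by length in the same way. Their medians were 1243 and 1029 bases on the high side and 2931.5 and 2833.5 bases on the low side. Cytosolic ribosomal proteins, like the members, had more genes on the high than on the low side (24.4% against 10.5% at 4 hr, 64% against 9.3% at 24 hr). Nuclear oxidative phosphorylation subunits did so only at 24 hr (11.8% against 16.2% at 4 hr, 41.2% against 13.2% at 24 hr). These counts describe samples picked by their mitochondrial share and were not tested.

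Among other genes of mitochondrial gene expression, the lists of translation factors, of aminoacyl-tRNA synthetases and of transcription and maintenance had higher medians than the ribosomal proteins. The proteins *tko* and *bonsai*, counterparts of small subunit proteins outside the symbol rule, had log2 fold changes at 24 hr of -0.76 (adjusted p = 0.064) and 0.43 (adjusted p = 0.36). The 9 translation factors that passed the filter had a median of 0.77 at 4 hr and 1.24 at 24 hr, and 0 of 9 passed the test. *mEFTs*, which recharges the elongation factor that delivers tRNA, averaged 45.6 TPM in uninjured samples and 83.3 and 81.0 TPM at 4 hr and 24 hr (log2 fold change 0.90 and 0.88, adjusted p = 0.026 and 0.029). *mRRF2*, which helps to split ribosomes for recycling, had 0.96 (adjusted p = 0.012) and 0.38. Of the 18 tested aminoacyl-tRNA synthetases and related amidotransferase genes (median 0.36 and 0.71), 1 was called at 24 hr, beside 2.32% of all tested genes. This was *CysRS-m*, which loads cysteine onto its tRNA. In TPM as deposited it rose from 5.78 ± 2.54 to 24.2 ± 3.23 TPM, or by 1.98 on the log2 scale (SE 0.36, adjusted p = 0.0032). All 5 samples lay above the uninjured ones, which held for 12.5% of all tested genes. Its values under the other scalings are not given here. The 11 tested genes of mitochondrial transcription and DNA maintenance, *TFAM* and the RNA polymerase gene *PolrMT* among them, had medians of 0.33 and 0.60 with 0 called. *PolG2* in this list and *GatC* in the synthetase list share 1 annotated locus and have identical values in all 15 samples. Without that locus the medians were 0.33 and 0.59 for the former list and 0.38 and 0.67 for the latter.

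The large mitochondrial ribosomal RNA, *mt:lrRNA*, was at 180625 ± 63630 TPM in uninjured samples, 96396 ± 58853 TPM at 4 hr and 89201 ± 40481 TPM at 24 hr. Its log2 fold changes were -1.15 and -1.06 (adjusted p = 0.15 and 0.13). The small one, *mt:srRNA*, was listed far lower, at 290.0 ± 157 TPM in uninjured samples, 213 ± 127 TPM at 4 hr and 648 ± 532 TPM at 24 hr, with log2 fold changes of -0.60 and 0.94 (adjusted p = 0.57 and 0.27). Both were captured through poly(A) priming, so their TPM is no measure of assembled ribosomes. Of the 68 tested nuclear subunits of oxidative phosphorylation none was called at either time, and their medians were 0.01 and -0.09. Cytosolic ribosomal proteins had medians of 0.38 and 0.51, with 2 of 86 called higher at 4 hr and 10 of 86 at 24 hr (2.33% and 11.6%, beside 5.99% and 2.32% of all tested genes), and summed to 15817 ± 2756, 20045 ± 1818 and 22741 ± 3500 TPM in the 3 groups. The differences between these lists and the mitoribosomal list were not tested. Many genes of the lists of translation factors, synthetases and maintenance are longer than the mitoribosomal genes. Cytosolic ribosomal protein genes on the high side of injured replicates 4 and 5 at 24 hr, 55 of 86, had a median exonic length of 796 bases. That of the tested members was 794 bases.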

How the data were processed

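The authors deposited TPM values, given to 2 decimals, for 15 samples. Their Smart-seq2 reads were trimmed with Trimmomatic 0.39 and aligned to dm6. HISAT2 with HTSeq, STAR 2.6.0a with RSEM 1.3.1, and DESeq2 1.30.1 for the authors' own tests are all named in the sources, and which of them gave TPM is not stated. Counts were not used here. The study states the total and average number of reads, but the sources used here do not give the depth of each single sample.

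Tests used log2(TPM + 1), a scale that understates changes near 0, for genes that reached a TPM of 1 in 5 or more samples. A single limma fit (version 3.58.1, R 4.3.3, moderated variances with a trend) held the 3 groups, and p-values were adjusted by Benjamini–Hochberg over 8101 genes. A call needed an adjusted p under 0.01 with a log2 fold change of 1 or more in size. The fit was tested on simulated data. Gene names, lengths and positions came from the BDGP6 annotation of dm6, in which 17398 of 17509 rows were found, and 72 of 73 symbols that fit the rule had a row. Tables were made with pandas 2.3.3 and NumPy 2.4.6 under Python 3.11.15, and figures with matplotlib 3.10.9; SciPy was at 1.17.1.

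The members, the lists and the markers were chosen with earlier results of these data known. Members were named for a call, for one of the 4 highest or 4 lowest log2 fold changes in a comparison, for one of the 4 highest or 4 lowest uninjured means, for their role, or for missing the filter, and a few more as single members of a count. The alternatives tried were dropping the filter or setting it at 5 TPM, adding 0.1 in place of 1 before the log, separate fits for each pair of groups, no variance trend, size factors, quantile normalization, removal of the mitochondrial genome, the mitochondrial share as a covariate, removal of the trend on exonic length, sample weights, a replicate block, an adjusted p of 0.05, and leaving out each replicate. Leaving out injured replicates 4 and 5 was added after the data were seen. No sequence is shown, and *mRpS5* is not reported.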

Additional observations from a re-analysis of the deposited data

Results flagged for a closer look

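In 11 of the 100 sets of 5 replicates examined for the named members, 1 sample stood apart from the other 4 by Dixon's criterion, which chance meets in about 1 in 20 groups, so about 5 were to be expected. For *mRpL3*, uninjured replicate 1 was at 21.2 TPM with the others at 5.12 to 6.47, and 24 hr replicate 4 was at 7.41 TPM with the others at 14.3 to 16.8. At 4 hr, *mRpS2* was at 70.4 TPM in replicate 4 (others 40.2 to 47.3), *mRpS33* at 19.4 TPM in replicate 5 (others 7.02 to 10.4), *mRpS14* at 8.01 TPM in replicate 2 (others 1.38 to 2.74) and *mRpS21* at 2.91 TPM in replicate 2 (others 0 to 0.82). At 24 hr, *mRpS24* was at 18.6 TPM in replicate 5 (others 5.41 to 7.14).

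Members near 0 gave the other 4. *mRpL34* was at 3.67 TPM in uninjured replicate 3 and at 0 in the others, and *mRpL11* at 0.76 TPM in 24 hr replicate 2 and at 0 in the others. *mRpL50* was at 1.23 TPM in 4 hr replicate 4 (others 0 to 0.29), and *mRpL18* at 0 in 4 hr replicate 3 (others 0.24 to 0.32).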

How the results depend on the processing

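No member passed the test at 4 hr or for 24 hr against 4 hr under any alternative run. At 24 hr the count was 1 without injured replicates 4 and 5 (*mRpS9*) and 2 at an adjusted p below 0.05, and 0 in the others. The median log2 fold change of the members at 4 hr was -0.20 with size factors, -0.27 with quantile normalization and -0.21 with the mitochondrial genome removed, and at 24 hr -0.35, -0.40 and -0.27. Summed TPM of the members was 1987, 1647 and 1477 in uninjured, 4 hr and 24 hr samples with size factors. With the mitochondrial genome removed the sums were 2962, 2453 and 2365 in the same groups. Leaving out each replicate gave medians of 0.03 to 0.19 at 4 hr, 0.03 to 0.19 at 24 hr and -0.03 to 0.15 between the injured groups. Replicate numbers follow the sample titles, and the descriptions of most uninjured and all 24 hr samples carry other numbers. A check on these numbers therefore cannot decide whether samples were paired. Same-numbered samples of different groups correlated at -0.04 to 0.54 in their deviations, and 6 of 15 correlated best with their own number. The numbers were not taken to pair samples. With a replicate block 0 members passed, with medians of 0.09, 0.12 and 0.10. Over 652 values of 41 named member and comparison pairs, 541 stayed within 1 SE and on their side of the threshold, 108 moved further, 3 passed the threshold and 14 pairs had another sign in some alternative. The unknown depth of the single samples, the 5 replicates and their spread limit what could be detected, and members near 0 TPM carry little information.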
